A study of Mus musculus with 25 samples.

Results

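The enzymes that make, attach and remove sialic acid were examined in 5 mouse melanoma cell lines, as a set of 31 genes taken from 55385 in the count files. The set holds all 20 sialyltransferases of the St3gal, St6gal, St6galnac and St8sia families, the sialidases Neu1 and Neu3, 5 genes that supply, transport or degrade sialic acid, and 4 glycosyltransferases that build the glycolipid core of gangliosides. The genes were listed by name and role, with earlier results of these libraries known. St6galnac3 was chosen by its measured difference between the metastatic classes of the lines, so that contrast is described for it without a test. Of the 31 members, 23 had enough counts to be tested among 15247 genes, and the other 8, all sialyltransferases, are given by their counts.

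Each line was sequenced as RNA from 5 cultures, 25 libraries in all, grown without drug treatment and harvested at 50% confluency. WT31 came from mice with Nras Q61K under the tyrosinase promoter and no INK4a. RET came from mice that carry the RET oncogene under the metallothionein promoter. B16F10 luc2 was purchased as an established line that expresses luciferase. D4M came from mice with an inducible tyrosinase-driven Cre and an activatable Braf allele, among other alleles. HCmel12 came from mice with an HGF transgene and the Cdk4 R24C mutation. The study grouped WT31, B16F10 luc2 and RET as high and intermediate metastatic melanoma (HIM-melanoma) and D4M and HCmel12 as low metastatic melanoma (LM-melanoma), by liver colonisation. Every genotype is 1 cell line, so the 5 cultures measure the spread of that line and not of its genotype. D4M and HCmel12 were also kept in media of their own, so line and medium cannot be told apart for these 2 lines.

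Library totals lay between 24199083 and 25843286 estimated counts. The 7 melanocyte lineage markers summed to 12026 to 30205 CPM (counts scaled to a common library total) in the libraries of 4 lines and to 6.54 to 59.6 in D4M, so these defining markers were near absent in D4M. The 6 fibroblast markers summed to 678 to 1324 CPM in D4M and to at most 88.8 elsewhere, with Lum at or under 3 counts in every library. The 5 leukocyte markers summed to 3.75 to 16.7 CPM in D4M and to at most 5.42 elsewhere, with Ptprc and Adgre1 at or under 3 counts throughout. The 5 keratinocyte markers summed to 3.81 to 15.2 CPM in HCmel12, where only Cdh1 passed 3 counts, and to at most 3.11 elsewhere. Krt5, Krt14 and Krt1 stayed at or under 3 counts throughout. The 4 endothelial markers summed to 25.4 to 39.1 CPM in HCmel12 and to at most 2.03 elsewhere, with Cdh5 at or under 3 counts there. The part of these differences in the results on sialylation was not tested. D4M replicate 1 showed the highest trace of other lines, at 0.381% of the level of genes found in HCmel12, and some libraries that lay away from their line for a single member are named beside it. Over the 17 members with at least 10 counts in every library, 2 libraries lay furthest from the others of their line. Their median absolute log2 deviations were 0.294 in HCmel12 replicate 4 and 0.268 in WT31 replicate 5, against at most 0.172 in any other library.

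Sialic acids are the charged sugars that cap many glycans on the cell surface. Gne starts their synthesis, Nans condenses the 9-carbon sugar, Cmas activates it as a CMP sugar in the nucleus and Slc35a1 carries that into the Golgi. There the sialyltransferases attach it through alpha-2,3, alpha-2,6 or alpha-2,8 bonds. Gangliosides are sialylated glycolipids: Ugcg and B4galt5 or B4galt6 make lactosylceramide, St3gal5 turns it into GM3, St8sia1 extends GM3 to GD3, and B4galnt1 adds GalNAc to give GM2 and GD2. Melanocytic cells are known for GM3 and GD3, and St6galnac3 adds alpha-2,6-linked sialic acid to the GalNAc of a sialylated acceptor, on glycolipids such as GM1b and on O-glycans.

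St6galnac3 (ENSMUSG00000052544.9) lies at chr3:153198266-153725174 on the minus strand of GRCm38. The sequences that anchor it are shown first because the gene was at 0 counts in every LM-melanoma library. The region upstream of the annotated gene, from the RefSeq promoter table (GRCm38.p6, chr3:153725175-153725383, minus strand), is printed with a CACGTG E-box in capitals.
St6galnac3 promoter: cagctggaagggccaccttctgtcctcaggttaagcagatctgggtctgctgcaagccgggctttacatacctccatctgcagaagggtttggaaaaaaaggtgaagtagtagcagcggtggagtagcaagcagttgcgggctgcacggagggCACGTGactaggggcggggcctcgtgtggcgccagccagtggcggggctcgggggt
The E-box, the same letters on both strands, starts 97 bases before the RefSeq start. It occurs in 6.02% of the 32817 RefSeq promoter entries over the 250 bases before the start, and in those of 2 of the 21 members with an entry, St6galnac3 and Npl. GGGCGG, searched on both strands, occurs in 32.7% of all entries and in 15 of the 21 members. For both motifs a member was counted when any of its entries held it, so the share of members is not per entry. A match says nothing of binding.

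The study measured St6galnac3 by PCR with a primer pair that lies in the coding part.
St6galnac3 forward: gactggaaaggacagagtcca
St6galnac3 reverse: gtagcaggcatccatagcca
In transcript ENSMUST00000200397.4 the forward primer spans exons 3 and 4, with 15 bases in exon 3, and the reverse primer lies in exon 4 at chr3:153206659-153206678. None of the 31-base sequences of St6galnac3 occurred in another gene.

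The level of St6galnac3 separated HIM-melanoma from LM-melanoma without overlap, and the 3 HIM-melanoma lines did not overlap either. In RNA from whole cultures, fewer expressing cells and less RNA per cell cannot be told apart. In WT31 the 5 libraries held 11.2, 9.46, 11.8, 8.89 and 11.1 CPM, scaled by TMM. In B16F10 luc2 they held 13.7, 14.5, 14.2, 13.2 and 13.8 CPM, and in RET 8.58, 7.77, 8.24, 5.96 and 7.83 CPM. All 5 libraries of D4M and all 5 of HCmel12 held 0 counts. Against the floor of 3 counts per library, the lowest of the 6 bounds was for RET over D4M, at least 57.6-fold higher, and the highest was for B16F10 luc2 over HCmel12, at least 115-fold higher. These bounds restate the contrast that chose the gene.

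Within HIM-melanoma St6galnac3 differed as well. It was higher in B16F10 luc2 than in RET by 0.86 on the log2 scale (SE 0.08, adjusted p = 4.01e-09). WT31 lay between them, lower than B16F10 luc2 by 0.41 (SE 0.08, adjusted p = 4.26e-05) and higher than RET by 0.45 (SE 0.09, adjusted p = 5.51e-05). The adjusted p for WT31 against B16F10 luc2 was 0.317 on log2(TPM + 1). Its relative St6galnac5, 216019 bases away on chromosome 3, had at most 1.17 counts in any library.

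All 23 tested members differed among the lines by the F test over the 5 line means, as did 96.9% of all tested genes. With most genes called, the counts per pair are read against the share of all genes. WT31 and B16F10 luc2 differed in 20 of 23 members (all genes 72.8%), and WT31 and RET in 22 (73.2%). WT31 and HCmel12 also differed in 22 (70.4%), and WT31 and D4M in 17 (76.1%). B16F10 luc2 and RET differed in 14 (51.5%), B16F10 luc2 and D4M in 18 (77.7%), and B16F10 luc2 and HCmel12 in 19 (69.1%). RET and D4M differed in 19 (77.1%), RET and HCmel12 in 18 (67.2%), and D4M and HCmel12 in 20 (72.5%). St6galnac3 is among the calls in each HIM against LM pair. Members called with a change of 2-fold or more were fewest between B16F10 luc2 and RET, with 1, St8sia5 (14.3% of all genes), and most between B16F10 luc2 and D4M, with 13 (39.8%). WT31 had 12 such members against B16F10 luc2 (31.4%), 10 against RET (31.2%), 9 against D4M (36.7%) and 11 against HCmel12 (30%). HCmel12 had 8 against B16F10 luc2 (28.1%), 8 against RET (26.6%) and 11 against D4M (35.4%), and RET had 11 against D4M (39.2%).

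The median absolute log2 difference of the members was 1.22 between WT31 and B16F10 luc2 and 1.42 between B16F10 luc2 and D4M, against 0.60 and 0.73 over all tested genes. Between B16F10 luc2 and RET it was 0.37 against 0.31, and between B16F10 luc2 and HCmel12 0.45 against 0.53. St3gal1, Cmas and B4galt6 were called in all 10 pairs, as were 7.19% of all genes. Each of them lost a call when single libraries were left out. St3gal1 lost WT31 against RET without WT31 replicate 1, 2 or 4 or RET replicate 2, 3 or 4 (adjusted p = 0.0535 to 0.141). Cmas lost WT31 against HCmel12 without WT31 replicate 3, 4 or 5 or HCmel12 replicate 4 (0.0504 to 0.113). B4galt6 lost WT31 against D4M without WT31 replicate 2 or 5 or D4M replicate 2 or 3 (0.0638 to 0.135), and B16F10 luc2 against RET without B16F10 luc2 replicate 1, 3 or 5 or RET replicate 1 or 4 (0.0501 to 0.0778).

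**Figure D1:**
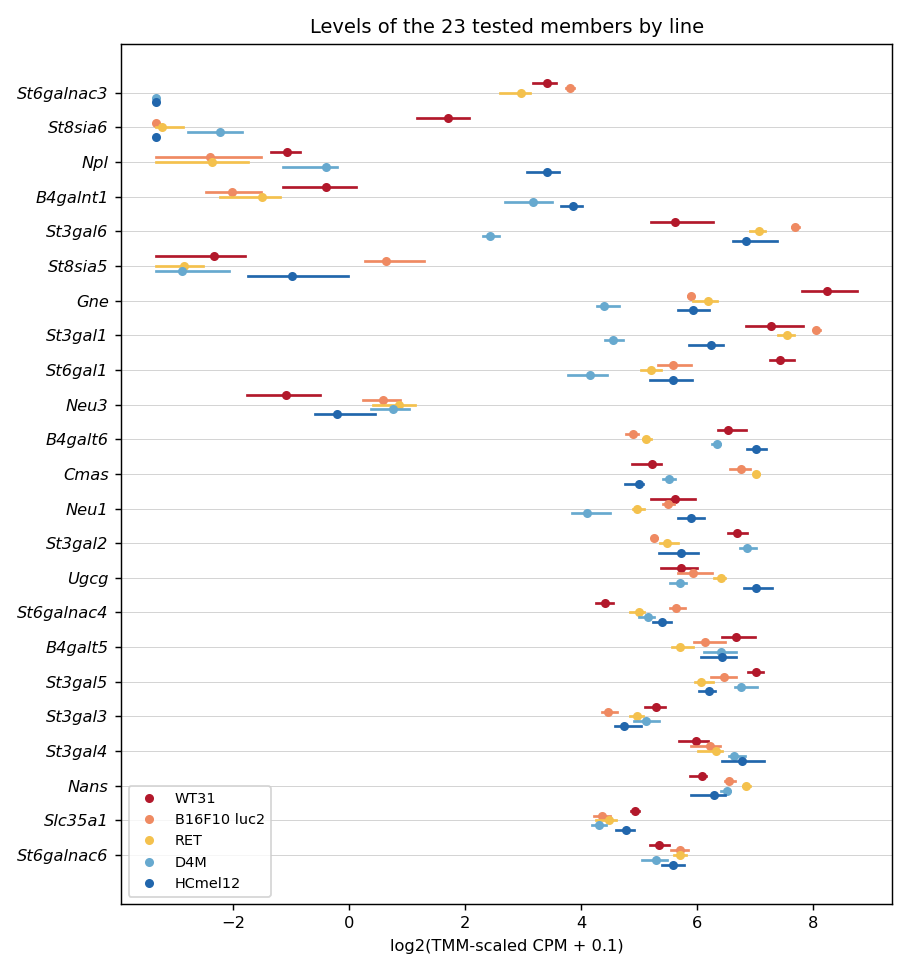
Levels of the 23 tested members in the 5 lines, as log2(CPM + 0.1), with a point for the mean of 5 libraries and a line for their range. Members are ordered by the size of the difference between the highest and the lowest line, from 0.43 on the log2 scale for St6galnac6 up to St6galnac3, whose D4M and HCmel12 libraries were at 0.

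The study looked for genes that moved the same way in all 6 comparisons of a HIM-melanoma with an LM-melanoma line. Besides St6galnac3, 3 of the other 22 tested members (13.6%) met this rule, beside 12.9% of all tested genes. St3gal1 was higher in HIM-melanoma (6.53% of all genes), and B4galnt1 and St3gal4 were lower (6.4%). The share of members is close to that of all genes.

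B4galnt1 (ENSMUSG00000006731.10, chr10:127165225-127172330, plus strand), the GM2 and GD2 synthase, was close to absent in HIM-melanoma. In D4M it held 9.34, 11.1, 9.35, 6.31 and 8.53 CPM, and in HCmel12 12.5, 13.3, 14, 15.9 and 16 CPM. WT31 held 0.354 to 0.981 CPM, RET 0.113 to 0.34 and B16F10 luc2 0.08 to 0.248, none of them reaching the lowest LM-melanoma library. The 6 differences ran from 3.80 to 6.51 on the log2 scale, and the largest adjusted p among them was 4.07e-13. HCmel12 exceeded D4M by 0.70 (SE 0.13, adjusted p = 1.79e-05). The B4galnt1 transcripts share 19.9% of their 31-base sequences with other genes, most with Slc26a10, which held 1.21 CPM in HCmel12, 0.525 in D4M and at most 0.169 as the mean of the other lines.

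St3gal1 (ENSMUSG00000013846.10, chr15:67102875-67176830, minus strand) caps the core 1 O-glycan with alpha-2,3-linked sialic acid. B16F10 luc2 held 278, 266, 258, 265 and 265 CPM, RET 172, 188, 203, 200.5 and 168, and WT31 143, 119, 173, 115 and 227. HCmel12 held 84.8, 72, 73.2, 87.1 and 58.1 CPM and D4M 26.1, 21.1, 21.8, 23.7 and 24.4. All HIM-melanoma libraries lay above all LM-melanoma libraries, and WT31 replicate 5 lay 0.80 on the log2 scale above the median of the other 4 libraries of its line. The 6 differences ran from 1.02 to 3.51 on the log2 scale, with adjusted p values up to 1.28e-07.

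St3gal4, which sialylates type 2 chains, differed less. HCmel12 held 109 ± 20.2 CPM (SD, n = 5), D4M 99.1 ± 8.09, RET 79.9 ± 8.83, B16F10 luc2 74.2 ± 9.76 and WT31 62.9 ± 8.29. The ranges of HCmel12 and RET overlapped, with the lowest HCmel12 library at 85.8 CPM and the highest RET library at 86.1. The 6 differences ran from 0.31 to 0.79, and the smallest, RET against D4M, had an adjusted p of 0.0135. That call was lost without RET replicate 2 (adjusted p = 0.0632), with scaling by library size only (0.358) and on log2(TPM + 1) (0.594). On log2(TPM + 1), WT31 (0.470) and B16F10 luc2 (0.890) were not called apart from D4M either. Its transcripts share 12.1% of their 31-base sequences, most with 4930581F22Rik, at a mean of 1.42 to 4.79 CPM.

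**Figure D2:**
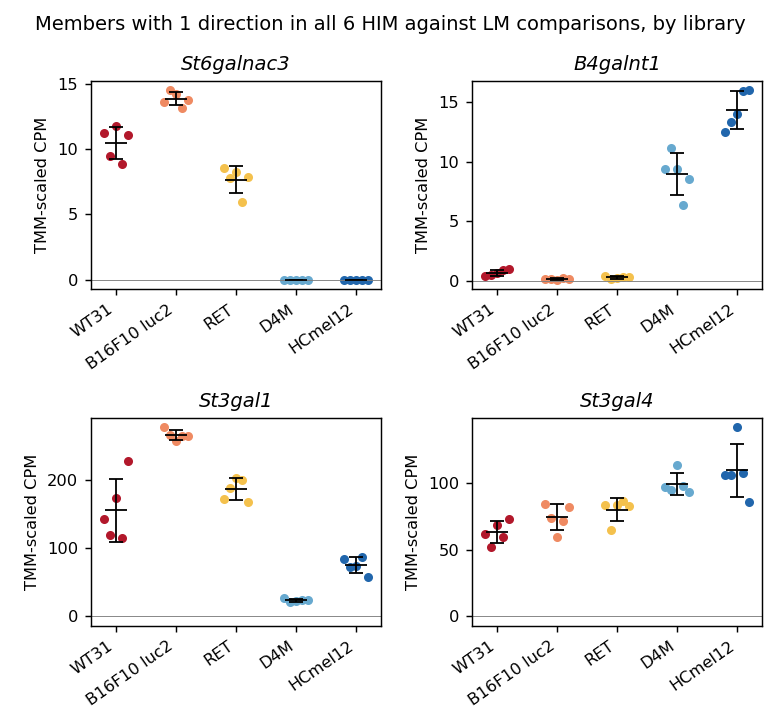
CPM of St6galnac3, B4galnt1, St3gal1 and St3gal4 in each of the 25 libraries, with the mean and SD of 5 libraries per line. St6galnac3 was at 0 in D4M and HCmel12, B4galnt1 was between 6.31 and 16 CPM there and under 1 elsewhere, and the St3gal4 ranges of HCmel12 and RET overlapped.

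Among the other alpha-2,3 enzymes, St3gal6 varied most. This enzyme (ENSMUSG00000022747.17, chr16:58468125-58524243, minus strand) acts on lactosamine ends of glycoproteins and glycolipids. B16F10 luc2 held 208, 217, 201, 206 and 199 CPM, RET 140.3, 120.1, 122, 144 and 141, and HCmel12 106, 98.3, 102, 166 and 99. WT31 held 37.7, 37, 57.7, 36.6 and 76.9 CPM, and D4M 5.88, 5.54, 5.35, 4.82 and 4.85. WT31 replicates 3 and 5 lay 0.63 and 1.04 on the log2 scale above the median of the other libraries of their line. D4M lay far below every other library, and HCmel12 replicate 4 was the only HCmel12 library above the RET range. B16F10 luc2 exceeded D4M by 5.29 on the log2 scale (SE 0.27, adjusted p = 9.03e-16), and RET and HCmel12 were not called apart (0.25, adjusted p = 0.13). Without HCmel12 replicate 4 they were, with RET higher by 0.39 (SE 0.13, adjusted p = 0.00939). The St3gal6 transcripts share 24.8% of their 31-base sequences, most with Dcbld2, which was highest in D4M at 139.5 CPM and at 49 to 63.7 CPM as the mean of the other lines.

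St3gal5, the GM3 synthase, was present in every line. Its level was 129 ± 9.3 CPM (SD, n = 5) in WT31, 108 ± 12.5 in D4M, 88 ± 11 in B16F10 luc2, 73.5 ± 5.38 in HCmel12 and 66.6 ± 6.07 in RET. WT31 exceeded RET by 0.95 on the log2 scale (SE 0.08, adjusted p = 1.03e-10), and HCmel12 and RET were not called apart (adjusted p = 0.137), but were without RET replicate 3 (0.0484). St3gal2, which acts on core 1 O-glycans and on gangliosides, was highest in D4M at 116 ± 9.24 CPM and lowest in B16F10 luc2 at 38.2 ± 1.17, a log2 difference of 1.59 (SE 0.09, adjusted p = 7.42e-15). WT31 held 103 ± 8.73 CPM of it and was not called apart from D4M (adjusted p = 0.0833), but was without WT31 replicate 1 (0.0378), D4M replicate 5 (0.0434) or HCmel12 replicate 4 (0.0264). St3gal3 ranged from 39.2 ± 3.37 CPM in WT31 to 22 ± 1.59 in B16F10 luc2, a log2 difference of 0.84 (SE 0.09, adjusted p = 5.68e-09).

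St6gal1, which adds alpha-2,6-linked sialic acid to N-glycans, was highest in WT31. WT31 held 162, 153, 181, 164 and 204 CPM, and D4M 16, 13.6, 15.1, 21.5 and 21.7. B16F10 luc2, HCmel12 and RET lay between them at 32.6 to 60.2 CPM, and no library of these lines reached the WT31 range. WT31 exceeded D4M by 3.31 on the log2 scale (SE 0.14, adjusted p = 2.18e-17). Its relative St6gal2 had 3 counts in all 25 libraries together.

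Of the other enzymes that sialylate GalNAc, St6galnac4 and St6galnac6, neighbours on chromosome 2 with 10 bases between their loci, were found everywhere. St6galnac4 ranged from 49.7 ± 3.42 CPM (SD, n = 5) in B16F10 luc2 to 21.3 ± 1.75 in WT31, a log2 difference of 1.22 (SE 0.07, adjusted p = 7.02e-14). St6galnac6 was the most even tested member, from 52.1 ± 2.75 CPM in RET to 38.9 ± 4.62 in D4M, a log2 difference of 0.43 (SE 0.09, adjusted p = 6.09e-05). St6galnac1 and St6galnac2 were near the floor, with at most 1 count and 7.63 counts in a library. The files hold 2 identifiers named St6galnac2, and only the longer locus, ENSMUSG00000057286.6, is given here.

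The alpha-2,8 enzymes were low in all lines. St8sia1, the GD3 synthase, had at most 14 counts in a library, with 1, 8, 9, 14 and 13 in WT31 and at most 7 elsewhere, and was not tested. St8sia2 and St8sia4, which make polysialic acid, had at most 1 count and 6.85 counts, and St8sia3 at most 1.08. St8sia6, which acts on O-glycans, was a WT31 gene in these libraries, with 2.16, 4.1, 3.76, 3.31 and 2.48 CPM there. D4M held 0.046 to 0.178 CPM, at 1 to 4 counts in a library, and RET at most 1 count. WT31 exceeded D4M by 4.58 on the log2 scale (SE 0.30). St8sia6 passed the count filter through WT31 alone, at 57 to 108 counts, so no p is given. All B16F10 luc2 and HCmel12 libraries were at 0, so WT31 was at least 26.1-fold higher than each against the floor of 3 counts. St8sia5, which extends gangliosides, was highest in B16F10 luc2, at 2.34, 1.11, 1.36, 1.16 and 1.31 CPM, followed by HCmel12 at 0.199 to 0.883. B16F10 luc2 exceeded HCmel12 by 1.95 on the log2 scale (SE 0.39), and WT31, RET and D4M held at most 0.19 CPM. St8sia5 would not have passed the count filter without B16F10 luc2, so no p is given for it either.

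The genes that supply sialic acid did not share an order of lines. Gne, which carries out the first steps of synthesis, was highest in WT31 at 225, 241, 339.7, 264 and 434 CPM. B16F10 luc2, RET and HCmel12 held 50.8 to 81.2 CPM and D4M 19.2 to 25, with no overlap of WT31 or D4M with the other lines. WT31 exceeded D4M by 3.80 on the log2 scale (SE 0.15, adjusted p = 9.60e-18). WT31 replicate 5, the highest library, lay 0.78 above the median of the other 4.

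Cmas, the CMP-sialic acid synthetase, was highest in RET and B16F10 luc2. RET held 128, 125, 134, 130.3 and 128 CPM and B16F10 luc2 119.8, 112, 94.6, 106 and 107. D4M held 42.4 to 48.9 CPM, WT31 29.4 to 41.3 and HCmel12 27.1 to 33.4, all far below both. RET exceeded HCmel12 by 2.02 on the log2 scale (SE 0.08, adjusted p = 9.90e-18). Cmas lies 45830 bases from St8sia1 on chromosome 6.

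Nans and Slc35a1 moved little. Nans was highest in RET at 115 ± 4.46 CPM (SD, n = 5) and lowest in WT31 at 67.4 ± 5, a log2 difference of 0.77 (SE 0.07, adjusted p = 5.79e-10). Its transcripts share 29% of their 31-base sequences, most with Trim14, at a mean of 0.401 to 2.95 CPM. Slc35a1 was highest in WT31 at 30.5 ± 1.28 CPM and lowest in D4M at 19.7 ± 1.35, a log2 difference of 0.63 (SE 0.07, adjusted p = 1.47e-08).

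Npl, the lyase that breaks down free sialic acid, was an HCmel12 gene in these libraries. HCmel12 held 10.0, 10.7, 11.5, 8.28 and 12.2 CPM, and no other library exceeded 0.767. HCmel12 exceeded B16F10 luc2 by 7.03 on the log2 scale (SE 0.49, adjusted p = 1.27e-12). WT31 and D4M were not called apart, and RET and B16F10 luc2 were not either.

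**Figure D3:**
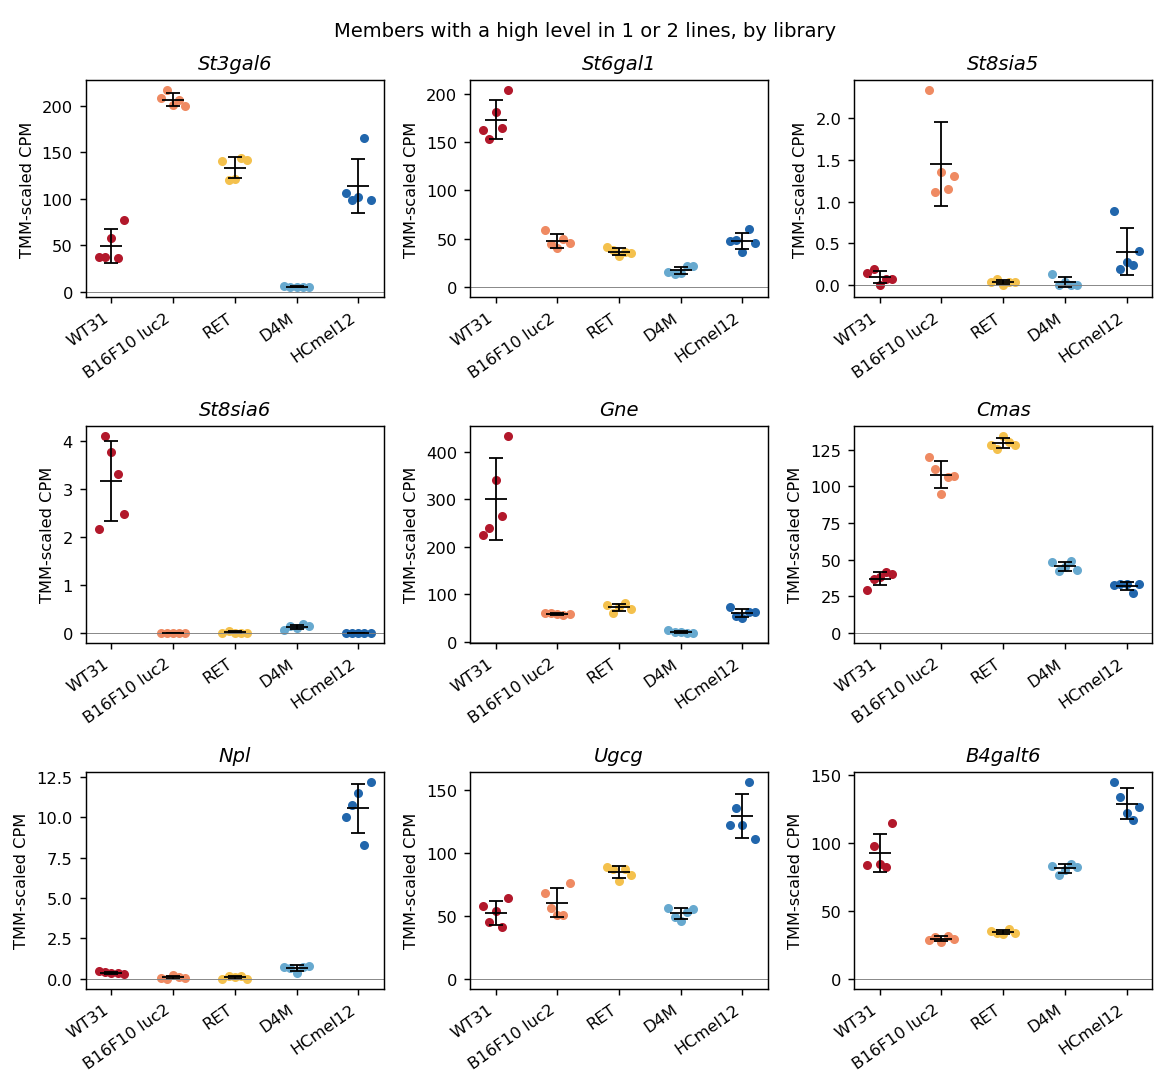
CPM of 9 members in each of the 25 libraries, with the mean and SD of 5 libraries per line. St3gal6 was also high in RET and HCmel12, and B4galt6 also in WT31 and D4M. St6gal1, St8sia6 and Gne were highest in WT31, St3gal6 and St8sia5 in B16F10 luc2, Cmas in RET, and Npl, Ugcg and B4galt6 in HCmel12.

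The sialidases, which remove sialic acid, followed different orders. Neu1, the lysosomal sialidase, was highest in HCmel12 at 59.2 ± 8.43 CPM (SD, n = 5) and lowest in D4M at 17 ± 3.36, a log2 difference of 1.81 (SE 0.13, adjusted p = 2.51e-12). Neu3, the plasma membrane sialidase that prefers gangliosides, was low, from 1.71 ± 0.33 CPM in RET to 0.368 ± 0.181 in WT31. RET exceeded WT31 by 2.26 on the log2 scale (SE 0.28, adjusted p = 6.67e-08), and RET, D4M and B16F10 luc2 were not called apart.

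Of the genes for the glycolipid core, Ugcg and B4galt6 were highest in HCmel12. Ugcg, the first glucosyltransferase, held 122, 136, 122, 157 and 111 CPM in HCmel12 and 78 to 89 in RET. WT31, B16F10 luc2 and D4M held 41.2 to 76.3 CPM, below every RET library. HCmel12 exceeded D4M by 1.31 on the log2 scale (SE 0.12, adjusted p = 9.35e-11). B4galt6, a lactosylceramide synthase, held 145, 134, 122, 116 and 126 CPM in HCmel12, 82 to 114 in WT31 and 76.5 to 84.2 in D4M. RET held 33.2 to 36.6 CPM and B16F10 luc2 27.1 to 31.6, below every library of the other lines. HCmel12 exceeded B16F10 luc2 by 2.12 (SE 0.08, adjusted p = 5.44e-18). B4galt5, the other lactosylceramide synthase, ranged from 102 ± 15.2 CPM in WT31 to 52.3 ± 5.48 in RET, a log2 difference of 0.96 (SE 0.13, adjusted p = 2.14e-07).

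The levels of different genes were compared by TPM, which is per length, in 24 libraries, with D4M replicate 1 not used. The 20 sialyltransferases summed to 589 ± 32.6 TPM (SD, n = 5) in B16F10 luc2, 457 ± 59.6 in WT31, 441 ± 11.5 in RET and 420 ± 33.9 in HCmel12. D4M had 267 ± 20.2 (n = 4). Alpha-2,3 enzymes made up 73.5% to 83.8% of this sum as the mean of a line, and alpha-2,8 enzymes at most 0.195%.

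St3gal6 was the largest mean share in B16F10 luc2 at 42.7% ± 1.96 (SD, n = 5), in RET at 33.7% ± 1.91 and in HCmel12 at 29.8% ± 4.74. In HCmel12 its range of 26.7% to 38.1% overlapped that of St3gal4, 21.7% to 31.4%, with a mean of 25.5% ± 3.67. In WT31 it was 11.3% ± 2.93 and in D4M 1.53% ± 0.289 (n = 4). In D4M St3gal4 led at 29.6% ± 0.801 and St3gal5 followed at 25.2% ± 1.77, and in WT31 St3gal5 led at 20.9% ± 1.78. St6gal1 reached 13.9% ± 0.403 in WT31 and at most 3.73% elsewhere, and St6galnac3 made up 1.05% to 1.41% in HIM-melanoma.

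**Figure D4:**
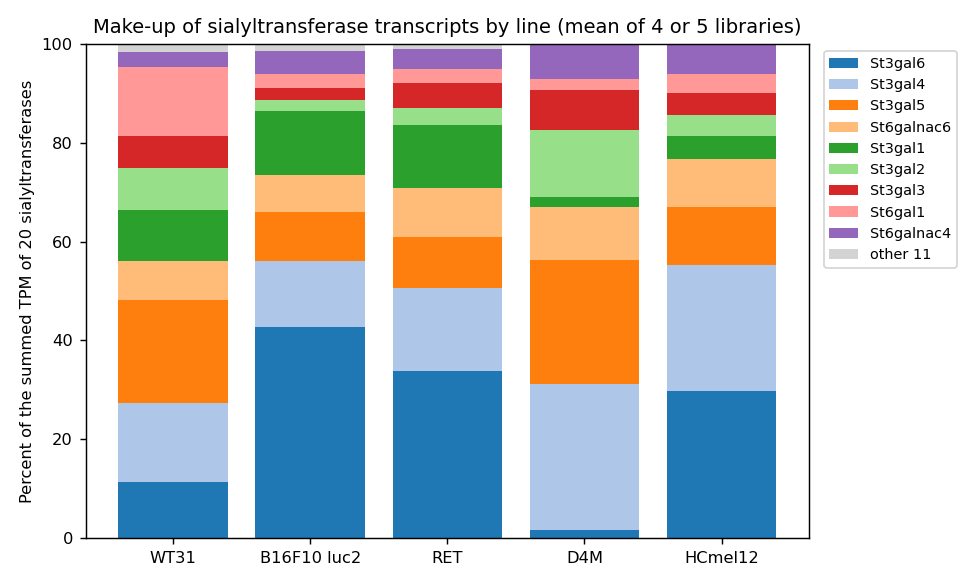
Mean percent of the summed TPM of the 20 sialyltransferases taken by each gene in the 5 lines (5 libraries a line, 4 in D4M), with the 11 genes under 2% in every line drawn together. St3gal6 falls from 42.7% in B16F10 luc2 to 1.53% in D4M, and St6gal1 is widest in WT31 at 13.9%.

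B4galnt1 and St8sia1 compete for GM3 and take it in different directions. The log2 ratio of B4galnt1 to St8sia1 TPM, with 0.1 added to each, was 6.40 ± 0.25 (SD, n = 5) in HCmel12 and 5.41 ± 0.49 (n = 4) in D4M. It was 1.90 ± 0.36 in WT31, 1.31 ± 0.38 in RET and 0.86 ± 0.39 in B16F10 luc2. With 1 added it was 3.36 for HCmel12, 2.63 for D4M, 0.52 for WT31, 0.23 for RET and 0.13 for B16F10 luc2. The mean of St8sia1 was 0.0129 to 0.065 TPM, below either added value, so the size of the ratio depends on that value and mostly restates the level of B4galnt1.

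The neighbouring pathways were counted by the same rule. In the ganglioside and glycolipid list, 17 of 19 genes were tested, and 1 gene was commonly lower and none commonly higher in HIM-melanoma. In the sialic acid list, all 12 genes were tested and 1 was commonly lower. In the ceramide and sphingomyelin list, 15 of 18 were tested, with 1 commonly higher and 2 lower, and among acceptor chains 17 of 19, with 2 higher and 2 lower. Together 9 of the 61 tested list genes (14.8%) were commonly regulated, close to the 12.9% of all tested genes, of which 6.53% were commonly higher and 6.4% lower. The median absolute log2 difference over all pairs was 0.71 to 0.93 in the 4 lists and 0.56 over all tested genes.

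Of these 61 genes, 3 (4.92%) differed by at least 2-fold in all 6 comparisons, all lower in HIM-melanoma, a share close to the 4.13% of all tested genes that did so in either direction. B3galt4, the GM1 synthase that acts after B4galnt1, held 2.23 ± 0.645 CPM (SD, n = 5) in HCmel12 and 1.84 ± 0.368 in D4M, against 0.133 to 0.416 as the mean of the other lines. Its 6 differences began at 2.11 on the log2 scale, and B3galt4 was lower in the same 3 lines as B4galnt1. It was named because it passed this rule, as the only commonly regulated gene of the 17 tested in its list. B4galt2, which adds galactose to N-acetylglucosamine, held 73.5 ± 5.33 CPM in D4M, 40.7 ± 4.19 in HCmel12 and at most 4.04 in any other library. Fut4, a fucosyltransferase of Lewis structures, held 3.52 ± 0.793 CPM in D4M and 1.19 ± 0.502 in HCmel12, and all 15 HIM-melanoma libraries were at 0.

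Over the 23 tested members, D4M was the lowest line for 9 and the highest for 1, St3gal2. WT31 was the highest for 7, HCmel12 for 6, B16F10 luc2 for 5 and RET for 4. These ranks follow the mean CPM and include lines not called apart. D4M and WT31 were not called apart for St3gal2 (adjusted p = 0.0833) or Ugcg (0.964). With scaling by library size only, WT31 was above D4M for St3gal2 by 0.07 on the log2 scale (adjusted p = 0.470). The same counts over all tested genes are not given here.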

How the data were processed

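RNA of 25 cultures of 5 mouse melanoma lines was sequenced. Per the labels and the study's methods, the authors trimmed reads with Trim Galore 0.6.4 and quantified them with kallisto against GRCm38.p6. The deposited files hold estimated counts per gene, of which 24.5% to 26.6% in a library are not whole, and TPM values made by the authors for 24 of the libraries. The annotation release behind them is not given in the sources used here. Pseudoalignment divides reads that fit several genes, so the share of 31-base sequences that a member's transcripts hold in common with other genes was counted in GENCODE M21.

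Counts were filtered with filterByExpr, scaled by TMM (edgeR 4.0.16) and fitted with voom and limma 3.58.1 in R 4.3.3, with 1 mean per line over all 25 libraries. The 10 line pairs and an F test over lines were tested with Benjamini-Hochberg adjustment over all 15247 tested genes, at 0.05. Adjusted p values are from limma. Levels are TMM-scaled CPM. Alternatives used DESeq2 1.42.0 and edgeR's quasi-likelihood test on rounded counts, other scalings and filters, log2 TPM and left-out libraries. The fits were also run on simulated counts in which a small set of genes differed, in RET only. That run says nothing of scaling or calls where most genes differ among the lines, as here. All 31 members are described. Of the pathway lists only genes past 2-fold in all 6 comparisons were named, at most 3 per list. The members and lists were chosen with earlier results of these data known. The genotype of D4M is not reported here in full. Replicates are labelled as biological replicates of a line. Replicate numbers were not used as pairs. Floors of 3 counts cover counting error only.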

Additional observations from a re-analysis of the deposited data

Results flagged for a closer look

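A library that stood apart from the other 4 of its line was found in 8 of 108 groups of 5 libraries, by the gap to its neighbour as a share of the range. Chance gives about 1 such group in 20. HCmel12 replicate 4 held 166 CPM of St3gal6 against 98.3 to 106 in the others (gap 0.888 of the range) and 27.1 CPM of Cmas against 33 to 33.4 (0.947). D4M replicate 3 held 113 CPM of St3gal4 against 93.1 to 97.4 (0.788), 130.2 CPM of St3gal5 against 101 to 105 (0.868) and 0.356 CPM of Npl against 0.668 to 0.767 (0.759). RET replicate 2 held 64.4 CPM of St3gal4 against 82.4 to 86.1 (0.828), and RET replicate 3 held 77.3 CPM of St3gal5 against 62.5 to 64.8 (0.845). B16F10 luc2 replicate 1 held 2.34 CPM of St8sia5 against 1.11 to 1.36 (0.799). Leaving out the library that stood apart moved 5 pairs of lines across the threshold. St3gal6 in RET against HCmel12 (adjusted p from 0.13 to 0.00939), St3gal5 in RET against HCmel12 (0.137 to 0.0484) and St3gal4 in WT31 against B16F10 luc2 (0.0637 to 0.0484) were then called. St3gal4 in RET against D4M (0.0135 to 0.0632) and Cmas in WT31 against HCmel12 (0.0273 to 0.113) were then not.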

How the results depend on the processing

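The F test over the 5 lines called 23 members under every alternative that has this test but 2, where the filter changed how many members were tested: 24 without a filter on low counts and 17 with at least 10 counts in every library. Members commonly lower in HIM-melanoma fell from 2 to 1, losing St3gal4, with scaling by library size only or log2 TPM at either pseudocount. The same held when calls also had to reach 2-fold. With at least 10 counts in every library B4galnt1 was not tested, and St3gal4 was the 1 that remained. When single libraries were left out the count ranged from 1 to 2, and it was 1 without RET replicate 2, which lost St3gal4. With edgeR's quasi-likelihood test and with DESeq2 it was 3, with Npl added. Members commonly higher, St3gal1 and St6galnac3, stayed at 2 except with at least 10 counts in every library. There St6galnac3 was not tested and 1 remained. St6galnac3 was chosen by this contrast, so only the calls of St3gal1 show how this count depends on the processing. When calls also had to reach 2-fold, the members called were 12 for WT31 against B16F10 luc2, 10 for WT31 against RET, 9 for WT31 against D4M, 11 for WT31 against HCmel12, 1 for B16F10 luc2 against RET, 8 for B16F10 luc2 against HCmel12, 11 for RET against D4M, 8 for RET against HCmel12 and 11 for D4M against HCmel12. Adding 1 instead of 0.1 to TPM moved the log2 ratio of B4galnt1 to St8sia1 to 3.36 for HCmel12, 2.63 for D4M, 0.52 for WT31, 0.23 for RET and 0.13 for B16F10 luc2. Replicate numbers did not pair the samples (correlations of same-numbered libraries from -0.09 to 0.10). A replicate block left 23 members called by the F test. Scaling by library size shifted all log2 differences that involve D4M by 0.15 to 0.23 in size, and the order of the lines was the same for 19 of 23 members, and for 17 on TPM. Of 2075 recomputed values, most from fits that left out 1 library, 2026 were labelled the same. For counts this meant close to the main value, loose enough to hold 18 members called and 13 at 2-fold for B16F10 luc2 against D4M. For percents and ratios it meant within the SD. For single genes it meant the same direction and call, or no call in either fit. Of the rest, 26 single-gene differences lost their call, most of them only because a 2-fold change was also required. Another 2 gained a call (St3gal6 in RET against HCmel12, without HCmel12 replicate 4 alone or with D4M replicate 1). The remaining 21 were counts or ratios that moved, and no called difference reversed. Over all members, 32 of 224 combinations of a tested member and a pair of lines changed sides of the threshold when some single library was left out. The 8 untested members had at most 14 counts in a library.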
